A study of Mus musculus with 16 samples.

Results

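CC chemokine ligands are small secreted proteins that guide leukocytes. Those measured here in mouse peritoneal cells sorted as tumour-associated macrophages (TAMs) were Ccl2, Ccl3, Ccl4, Ccl5, Ccl6, Ccl7, Ccl9, Ccl12, Ccl22 and Ccl24. Every probe set annotated with exactly 1 of these symbols was taken, which gave 12 probe sets of 45101 on the array and 10 genes of the 18194 that had a probe set with 1 symbol. Ccl6 and Ccl9 had 2 probe sets each, and each of the other genes had 1. The RNA came from 4 groups of 4 Affymetrix arrays each. They were RbpjiΔEC mice with cells labelled TAM and CCR2+, control mice with cells labelled TAM and CCR2+, RbpjiΔEC mice with cells labelled TAM and CCR2-, and control mice with cells labelled TAM and CCR2-. The question the design addresses is whether the endothelial genotype and the CCR2 sort go with different transcript levels in the sorted cells.

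All mice were C57BL/6N females. For all groups alike, the protocol gives tamoxifen (1 mg, a single oral gavage at an age of 8 to 12 weeks), then 3 weeks later an intraperitoneal injection of ID8-luc, luciferase-carrying cells of a murine ovarian cancer line, and 4 weeks of tumour growth. RbpjiΔEC names an inducible deletion of Rbpj, the DNA-binding factor of Notch signalling, in endothelial cells. The Cre driver, the alleles that the control mice carry, and whether animals were pooled are not given in the sources used here. Cells of the peritoneal lavage were sorted as CD45+, CD11b+ and F4/80+, and as CCR2+ or CCR2-. The deletion is aimed at endothelial cells, so the Rbpj transcript of the sorted cells checks no label. Rbpj averaged 11.43 ± 0.29 in RbpjiΔEC and 11.36 ± 0.16 in control arrays labelled CCR2+, and 10.35 ± 0.21 in RbpjiΔEC and 10.44 ± 0.23 in control arrays labelled CCR2- (log2 intensity, SD, n = 4 each).

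Each ligand acts through G protein-coupled receptors on the responding cell. Ccl2, Ccl7 and Ccl12 are ligands of CCR2, which draws monocytes out of the blood. Ccl3, Ccl4 and Ccl5 are inflammatory ligands, of which Ccl3 and Ccl5 bind CCR1. Ccl6 and Ccl9 are ligands of CCR1 known from rodents. Ccl22 binds CCR4, found on regulatory T cells among others. Ccl24 binds CCR3, the eosinophil receptor. Macrophages both make these ligands and respond to them, and resident and monocyte-derived macrophages of the peritoneal cavity are known to differ in which ones they make.

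Values throughout are log2 of the deposited intensity after quantile normalization over the 16 arrays, unless given as a difference. A group mean was called near the floor if it was at most 6.92, which is 0.5 above the mean of the 3 bacterial trp control probe sets (6.42), whose RNA mouse cells lack. The number of arrays limits the precision. Separate animals behind the arrays of a group are not stated in the labels. The p-values thus measure only the spread between these arrays, which may be technical. In the tests each gene had a spread shared by the 4 groups, so a test within a label also carries the spread of the other label.

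Before the results, 3 facts on the arrays bear on every comparison between the sort labels. The first is that the deposited columns differ in kind with the label. The 8 arrays labelled CCR2+ had mean intensities of 821 to 827, and the 8 labelled CCR2- had 481 to 762. Between 2.58% and 2.91% of the values in the columns labelled CCR2+ turned into whole numbers (within 0.001) when multiplied by some number up to 22, against 100% in those labelled CCR2-. Label and kind of column cannot be told apart. The second is that the transcript of the sorted receptor went against the label. Ccr2 averaged 7.99 ± 1.05 in the control arrays labelled CCR2+ and 9.99 ± 1.08 in those labelled CCR2-, a difference of -1.99 (SE 0.63, adjusted p = 0.0184). In RbpjiΔEC mice the Ccr2 means were 7.69 ± 0.47 and 8.94 ± 1.32 for the labels CCR2+ and CCR2- (adjusted p = 0.135). The third is that markers of other cells moved with the label. All 12 measured markers of large peritoneal macrophages (Gata6 and Timd4 among them) were higher, and all 12 measured B cell markers (Cd79a and Ms4a1 among them) lower, in the arrays labelled CCR2+ in both genotypes. The summed intensity of the macrophage list lay between 16.56 and 16.72 in the arrays labelled CCR2+ and between 12.22 and 12.55 in those labelled CCR2-. That of the B cell list lay between 11.86 and 12.01 in the arrays labelled CCR2+ and between 16.15 and 16.23 in those labelled CCR2-. In the arrays labelled CCR2+, 3 of the 12 B cell markers were near the floor in both genotypes (Cd22, Fcmr and Fcrla), and in those labelled CCR2- Ltbp1 of the macrophage list was near the floor in both genotypes and Vsig4 in RbpjiΔEC mice. In sorted bulk cells a smaller share of cells of a type and less RNA per cell cannot be told apart. The name TAM is therefore used here only as the sort label, for the arrays labelled CCR2- above all. The part of these values in the results below was not tested.

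The ligand genes lie mostly in a cluster on mouse chromosome 11, where RefSeq (GRCm38.p6) places Ccl5, Ccl9, Ccl6, Ccl3 and Ccl4 next to each other in this order, and Ccl2 beside Ccl7 and Ccl12 beside Ccl8. Ccl22 lies on chromosome 8 next to Cx3cl1, and Ccl24 on chromosome 5 next to Ccl26. RefSeq promoter sequence matched 5 of the 10 members (Ccl3, Ccl6, Ccl9, Ccl12 and Ccl22) and not Ccl2, Ccl4, Ccl5, Ccl7 and Ccl24. Shown are the 250 bases before the start of Ccl6 and Ccl9, neighbours that were both higher in the arrays labelled CCR2+, and of Ccl22, which was lower there. Ccl6 is at chr11:83593088-83593337 on the minus strand, Ccl9 at chr11:83578637-83578886 on the minus strand, and Ccl22 at chr8:94745434-94745683 on the plus strand (GRCm38.p6). Capitals mark GGAAGT or its reverse complement ACTTCC, a core that ETS family factors such as PU.1 bind, PU.1 being a lineage factor of macrophages and B cells.
Ccl6: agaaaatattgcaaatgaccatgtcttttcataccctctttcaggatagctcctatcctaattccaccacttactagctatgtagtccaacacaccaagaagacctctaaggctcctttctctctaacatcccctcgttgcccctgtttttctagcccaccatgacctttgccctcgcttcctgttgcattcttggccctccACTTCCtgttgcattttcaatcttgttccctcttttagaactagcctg
Ccl9: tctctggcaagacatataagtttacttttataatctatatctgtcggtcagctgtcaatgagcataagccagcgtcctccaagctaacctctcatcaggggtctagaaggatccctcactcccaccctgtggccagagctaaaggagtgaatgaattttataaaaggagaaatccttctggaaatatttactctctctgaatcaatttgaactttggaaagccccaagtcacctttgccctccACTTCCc
Ccl22: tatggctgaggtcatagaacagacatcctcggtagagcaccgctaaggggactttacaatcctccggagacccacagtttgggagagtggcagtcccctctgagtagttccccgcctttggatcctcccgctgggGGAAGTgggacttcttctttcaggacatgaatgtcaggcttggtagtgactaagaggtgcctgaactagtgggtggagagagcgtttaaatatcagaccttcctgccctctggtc
The match in Ccl6 starts 48 bases before the gene's start, that in Ccl9 at 7 bases and that in Ccl22 at 115 bases. The best-scoring local alignment between the Ccl6 and Ccl9 windows spans 17 bases, of which 16 are identical, and it holds the marked match of both.

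GGAAGT, searched on both strands, was found in all 5 members searched, Ccl3 and Ccl12 included, against 19.7% of 32851 promoter windows of the same length. An NF-kB type motif (GGG and TTCC with any 3 bases between, both strands) was found in Ccl9 alone of the 5, against 4.65% of all windows. TATAAA, on either strand, was found in Ccl9 and Ccl12, against 12.4% of all windows, and a STAT type motif (TTC and GAA with any 4 bases between) in none of the 5, against 5.85%. The match of the NF-kB type in Ccl9 does not overlap the marked core. These matches describe the letters of the windows.

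Between the sort labels, 7 of the 10 ligands were called in each genotype. In RbpjiΔEC mice 5 were higher (Ccl2, Ccl3, Ccl6, Ccl9, Ccl24) and 2 lower (Ccl5, Ccl22) in the arrays labelled CCR2+, at a limma adjusted p under 0.05. In that comparison 39.1% of all 18194 genes were called, 18.1% higher and 21% lower. In control mice 5 were higher (Ccl3, Ccl4, Ccl6, Ccl9, Ccl24) and the same 2 lower, where 40.8% of all genes were called, 19.4% higher and 21.4% lower. The arrays of both labels did not overlap for Ccl3, Ccl5, Ccl6, Ccl9, Ccl22 and Ccl24 in either genotype, as held for 38.2% of all genes in RbpjiΔEC and 37.4% in control mice. The median difference of the 10 ligands was 0.26 in RbpjiΔEC and 0.28 in control mice, and that of all genes -0.03 in both. The split of all genes moved with the scaling. After quantile normalization it was 3290 higher and 3817 lower in RbpjiΔEC and 3532 higher and 3891 lower in control mice. With median centring it was 3529 higher and 2842 lower in RbpjiΔEC and 4405 higher and 2607 lower in control mice, and with no normalization 5704 higher and 1193 lower in RbpjiΔEC and 4599 higher and 1726 lower in control mice. The 6 ligands without overlap kept their direction and call under both.

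**Figure D1:**
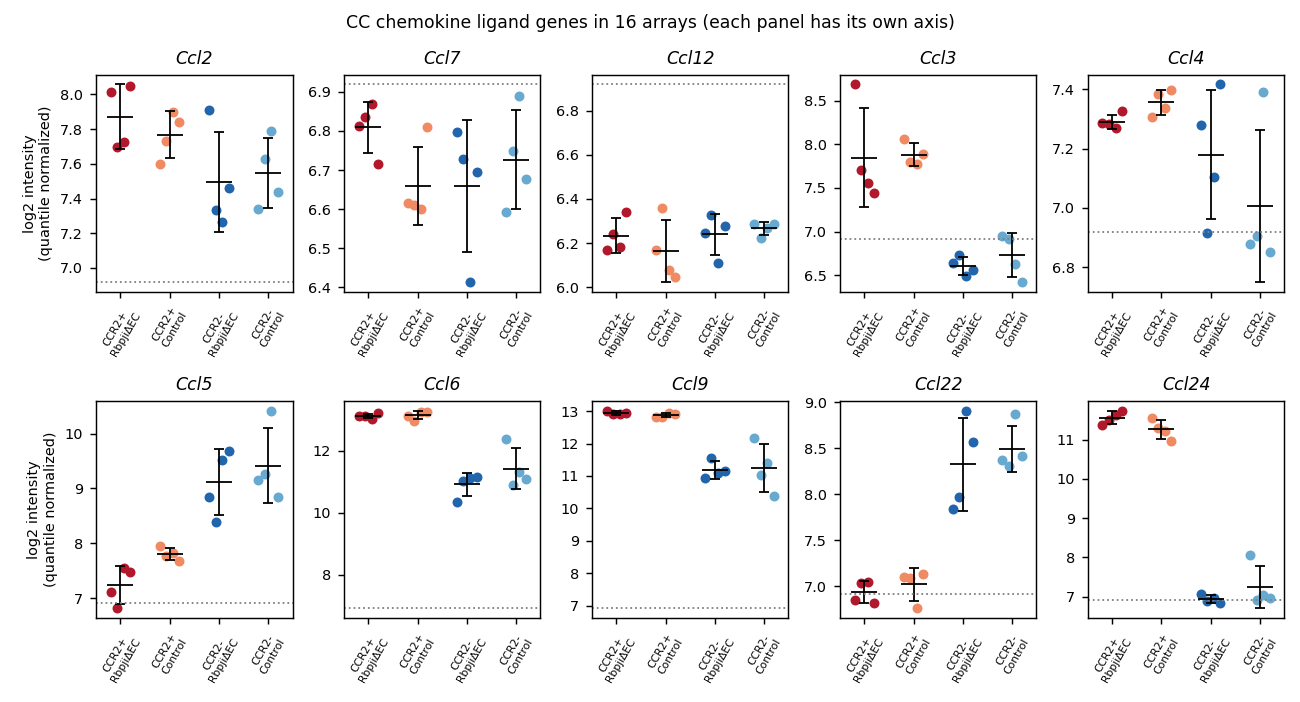
Log2 intensity (y, each panel with its own scale) of the 10 ligand genes in the 4 groups (x); each point is 1 array, the long line is the group mean, the bars are the SD (n = 4), and the dotted line is the near-floor limit of 6.92. Ccl24, Ccl6, Ccl9 and Ccl3 sit higher and Ccl5 and Ccl22 lower in the arrays labelled CCR2+, and Ccl7 and Ccl12 lie under the limit in all 4 groups.

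Ccl24, the eosinophil attractant that binds CCR3, differed most of the 10. Ccl24 in the arrays labelled CCR2+ measured 11.37, 11.50, 11.64 and 11.73 in RbpjiΔEC arrays 1 to 4, against 11.54, 11.29, 11.23 and 10.96 in control arrays 1 to 4. Ccl24 in the arrays labelled CCR2- measured 7.08, 6.88, 6.98 and 6.84 in RbpjiΔEC arrays, against 8.06, 6.93, 7.03 and 6.97 in control arrays. All 8 arrays labelled CCR2+ were high, 7 of the 8 labelled CCR2- lay close to the near-floor limit, and control array 1 labelled CCR2- stood above the other 7. Between the labels Ccl24 was higher by 4.62 in RbpjiΔEC mice (SE 0.20, adjusted p = 9.67e-12), 24.5-fold, and by 4.01 in control mice (SE 0.20, adjusted p = 6.19e-11), 16.1-fold. The deposited linear intensities averaged 3769 and 3058 in RbpjiΔEC and control arrays labelled CCR2+, and 114 and 163 in RbpjiΔEC and control arrays labelled CCR2-. Folds against arrays this close to the floor include background light and are no bound. Without control array 1 labelled CCR2- the Ccl24 difference in control mice was 4.28. The Ccl24 means were 11.56 in RbpjiΔEC and 11.26 in control arrays labelled CCR2+, and 6.94 in RbpjiΔEC and 7.25 in control arrays labelled CCR2-. By level both means labelled CCR2+ thus came before both labelled CCR2-, and only the step between the labels exceeded the spread.

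Ccl6, a CCR1 ligand, stood well above the near-floor limit in every array. The Ccl6 values under the label CCR2+ were 13.12, 13.13, 13.04 and 13.22 in RbpjiΔEC arrays 1 to 4, against 13.14, 12.98, 13.27 and 13.26 in control arrays 1 to 4. The Ccl6 values under the label CCR2- were 10.36, 11.04, 11.11 and 11.15 in RbpjiΔEC arrays, against 12.39, 10.89, 11.33 and 11.09 in control arrays. The labels did not overlap, and the genotypes overlapped within both labels. Ccl6 was higher by 2.21 in RbpjiΔEC mice (SE 0.25, adjusted p = 1.50e-06), 4.62-fold, and by 1.74 in control mice (SE 0.25, adjusted p = 2.18e-05), 3.34-fold, in the arrays labelled CCR2+. The second Ccl6 probe set, 1420249_s_at, whose suffix marks probes that can match several transcripts, gave differences of 3.14 in RbpjiΔEC and 2.47 in control mice. The Ccl6 means were 13.13 in RbpjiΔEC and 13.16 in control arrays labelled CCR2+, and 10.92 in RbpjiΔEC and 11.42 in control arrays labelled CCR2-, with only the step between the labels beyond the spread.

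Ccl9, also a CCR1 ligand and the chromosomal neighbour of Ccl6, had the same direction between the labels. Ccl9 in the arrays labelled CCR2+ measured 13.01, 12.92, 12.90 and 12.94 in RbpjiΔEC arrays 1 to 4, against 12.83, 12.83, 12.96 and 12.92 in control arrays 1 to 4. Ccl9 in the arrays labelled CCR2- measured 10.94, 11.55, 11.09 and 11.16 in RbpjiΔEC arrays, against 12.19, 11.02, 11.41 and 10.39 in control arrays. The arrays labelled CCR2+ lay within a narrow band and above every array labelled CCR2-, of which the 4 control arrays were spread widest. Ccl9 was higher by 1.76 in RbpjiΔEC mice (SE 0.25, adjusted p = 2.61e-05), 3.38-fold, and by 1.63 in control mice (SE 0.25, adjusted p = 5.43e-05), 3.10-fold, in the arrays labelled CCR2+. The second Ccl9 probe set, 1448898_at, gave 1.96 in RbpjiΔEC and 2.14 in control mice. The Ccl9 means were 12.94 in RbpjiΔEC and 12.88 in control arrays labelled CCR2+, and 11.18 in RbpjiΔEC and 11.25 in control arrays labelled CCR2-, and within a label they did not differ beyond the spread. Centred on their own means, Ccl6 and Ccl9 differed by a root mean square of 0.31 over the 16 arrays. That is a description over arrays that share their labels and normalization.

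Control array 1 labelled CCR2- was the highest of the 8 arrays of that label for Ccl6, Ccl9 and Ccl24. The same array had the highest Ccr2 value of all 16, 11.51, against 7.58 to 10.73 in the other 7 labelled CCR2-. Its summed intensity of monocyte and small peritoneal macrophage markers was 14.86, against 14.06 to 14.29 in the other 7. That list includes Ccr2, so the sum and the Ccr2 value are not separate observations. Without it, the difference between the labels in control mice was 2.06 for Ccl6 and 1.94 for Ccl9, each still called. The part of these values in the ligand levels was not tested.

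**Figure D2:**
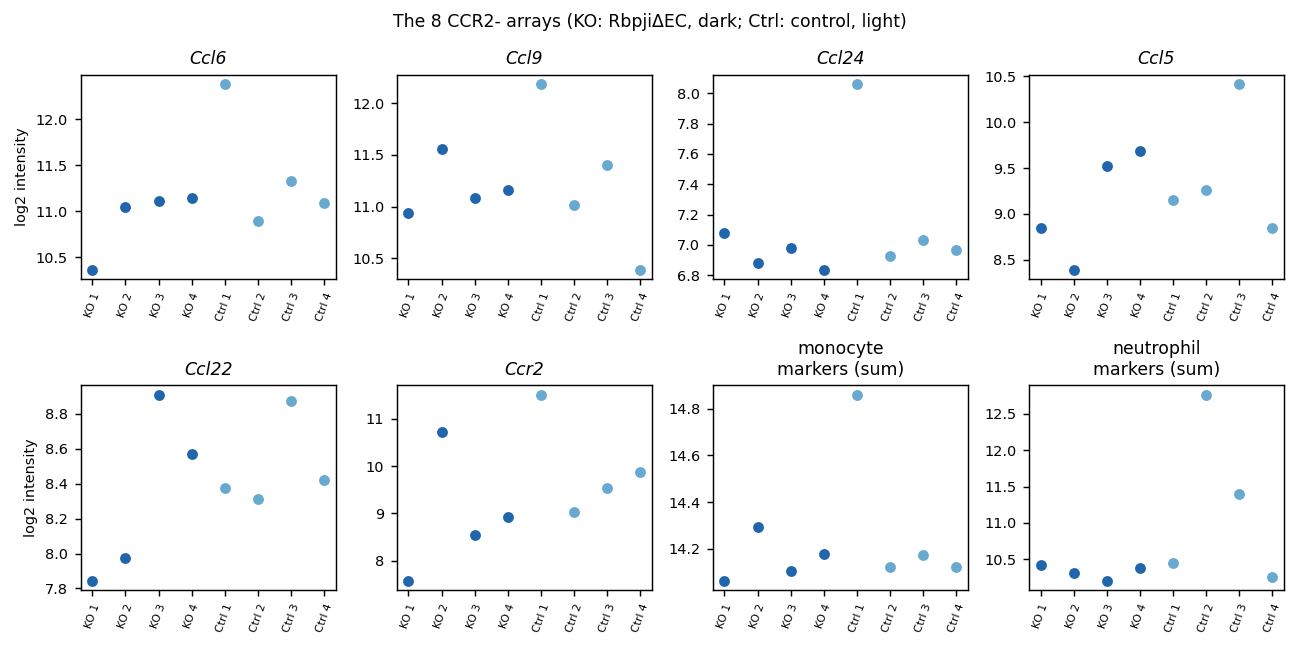
Log2 intensity (y, each panel with its own scale) in the 8 arrays labelled CCR2- (x; KO is RbpjiΔEC, dark, and Ctrl is control, light, both numbered by replicate) for 5 ligands, Ccr2 and the summed intensity of monocyte and of neutrophil markers; each point is 1 array. Control array 1 is highest for Ccl6 (12.39), Ccl9 (12.19), Ccl24 (8.06), Ccr2 (11.51) and the monocyte markers, a list that includes Ccr2. Ccl5 is highest in control array 3 (10.42) and Ccl22 in RbpjiΔEC array 3 (8.91).

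Ccl3, a ligand of CCR1 that activated macrophages release, was the other ligand called higher in both genotypes. The Ccl3 values under the label CCR2+ were 8.69, 7.70, 7.56 and 7.44 in RbpjiΔEC arrays 1 to 4, against 8.07, 7.80, 7.77 and 7.89 in control arrays 1 to 4. The Ccl3 values under the label CCR2- were 6.64, 6.73, 6.49 and 6.56 in RbpjiΔEC arrays, against 6.95, 6.92, 6.62 and 6.42 in control arrays. The labels did not overlap, RbpjiΔEC array 1 labelled CCR2+ stood above the rest, and both group means labelled CCR2- were near the floor. Ccl3 was higher by 1.24 in RbpjiΔEC mice (SE 0.21, adjusted p = 0.000121) and by 1.16 in control mice (SE 0.21, adjusted p = 0.000235) in the arrays labelled CCR2+. As for Ccl24, the sizes of these differences include background light in the arrays labelled CCR2-. The Ccl3 means of RbpjiΔEC CCR2+ (7.85), control CCR2+ (7.88), RbpjiΔEC CCR2- (6.61) and control CCR2- (6.73) differed beyond the spread only between the labels.

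Ccl4, its chromosomal neighbour, moved little. Ccl4 in the arrays labelled CCR2+ measured 7.29, 7.28, 7.27 and 7.33 in RbpjiΔEC arrays, against 7.31, 7.38, 7.34 and 7.40 in control arrays. Ccl4 in the arrays labelled CCR2- measured 7.28, 6.92, 7.11 and 7.42 in RbpjiΔEC arrays, against 6.88, 6.91, 7.39 and 6.85 in control arrays. The labels overlapped in both genotypes, with control array 3 labelled CCR2- as high as the arrays labelled CCR2+. The Ccl4 difference between the labels was 0.11 in RbpjiΔEC mice (SE 0.12, adjusted p = 0.510) and 0.35 in control mice (SE 0.12, adjusted p = 0.0274). That call was lost without control array 2 (adjusted p = 0.0571) or 4 (0.0596) labelled CCR2+, and without control array 1 (0.0771), 2 (0.0729) or 4 (0.0783) labelled CCR2-. It was also lost with median centring (0.122) and with no normalization (0.199).

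Ccl5, a CCR1 ligand that T and NK cells also make, went the other way. The Ccl5 values under the label CCR2+ were 7.10, 6.81, 7.55 and 7.47 in RbpjiΔEC arrays 1 to 4, against 7.95, 7.76, 7.83 and 7.68 in control arrays 1 to 4. The Ccl5 values under the label CCR2- were 8.84, 8.39, 9.52 and 9.68 in RbpjiΔEC arrays, against 9.15, 9.26, 10.42 and 8.84 in control arrays. Every array labelled CCR2+ was below every array labelled CCR2-. Ccl5 differed by -1.88 in RbpjiΔEC mice (SE 0.31, adjusted p = 0.000107), 3.67-fold lower, and by -1.61 in control mice (SE 0.31, adjusted p = 0.000435), 3.06-fold lower. Its means lay in the rising order RbpjiΔEC CCR2+ (7.23), control CCR2+ (7.81), RbpjiΔEC CCR2- (9.11) and control CCR2- (9.42), where only the step between the labels passed the test.

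Some markers of T and NK cells were lower in the same arrays as Ccl5. Of 12 measured, 5 were lower in RbpjiΔEC and 4 in control mice in the arrays labelled CCR2+, and 0 were higher. Lower among all genes were 21% in RbpjiΔEC and 21.4% in control mice. The summed intensity of the T and NK markers was 10.99 to 11.42 in the arrays labelled CCR2+ and 13.42 to 13.64 in those labelled CCR2-. Cd3e, Gzma, Gzmb and Ncr1 of this list were near the floor in all 4 groups. Dendritic cell markers, given with Ccl17 below, were also lower in the arrays labelled CCR2+. Among the arrays labelled CCR2-, Ccl5 was highest in control array 3 (10.42) and lowest in RbpjiΔEC array 2 (8.39). In that order, the summed T and NK markers were 13.45 and 13.59, and the summed dendritic cell markers 12.85 and 12.45. These arrays were picked by their Ccl5 values, and the others of that label are left out. They do not show which list ran with Ccl5. The part of either kind of cell in the Ccl5 values was not tested.

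Ccl22, a CCR4 ligand made by dendritic cells and macrophages, was also lower in the arrays labelled CCR2+. Ccl22 in the arrays labelled CCR2+ measured 6.86, 7.04, 7.05 and 6.82 in RbpjiΔEC arrays 1 to 4, against 7.10, 7.09, 6.76 and 7.14 in control arrays 1 to 4. Ccl22 in the arrays labelled CCR2- measured 7.85, 7.98, 8.91 and 8.57 in RbpjiΔEC arrays, against 8.37, 8.31, 8.87 and 8.42 in control arrays. The labels did not overlap, and the 8 arrays labelled CCR2+ lay between 6.76 and 7.14, close to the near-floor limit. Ccl22 differed by -1.38 in RbpjiΔEC mice (SE 0.19, adjusted p = 1.92e-05), 2.61-fold lower, and by -1.47 in control mice (SE 0.19, adjusted p = 9.31e-06), 2.77-fold lower. The Ccl22 means of RbpjiΔEC CCR2+ (6.94), control CCR2+ (7.02), RbpjiΔEC CCR2- (8.32) and control CCR2- (8.49) differed beyond the spread only between the labels.

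Ccl17, the other CCR4 ligand, is no member but had the same direction. Ccl17 averaged 7.65 ± 0.15 in RbpjiΔEC arrays labelled CCR2+ and 9.35 ± 1.26 in those labelled CCR2- (difference -1.71, SE 0.44, adjusted p = 0.00493), with overlap. In control mice it averaged 7.64 ± 0.17 under the label CCR2+ and 9.71 ± 0.60 under CCR2- (difference -2.08, SE 0.44, adjusted p = 0.00104). Dendritic cell markers were lower in the same arrays, 4 of 7 in RbpjiΔEC and 6 of 7 in control mice, with 0 higher. Of all genes 21% were lower in RbpjiΔEC and 21.4% in control mice. The summed intensity of the dendritic cell markers was 10.93 to 11.90 in the arrays labelled CCR2+ and 11.96 to 12.85 in those labelled CCR2-. In the arrays labelled CCR2+ Ccr7 of this list was near the floor in both genotypes, and Flt3 and Xcr1 in control mice. Ccr7, a receptor of B and T cells too, is among the called markers in both genotypes and is part of the sum. Their part in the Ccl22 and Ccl17 values was not tested.

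The 3 CCR2 ligands differed little between the labels, as did Ccl4. Ccl2, the main monocyte attractant, measured 8.01, 7.70, 7.73 and 8.05 in RbpjiΔEC and 7.60, 7.73, 7.90 and 7.84 in control arrays labelled CCR2+. In the arrays labelled CCR2- it measured 7.91, 7.34, 7.27 and 7.46 in RbpjiΔEC and 7.34, 7.63, 7.79 and 7.44 in control mice. The 4 groups overlapped, with means between 7.49 and 7.87. The Ccl2 difference between the labels was 0.38 in RbpjiΔEC mice (SE 0.14, adjusted p = 0.0441) and 0.22 in control mice (SE 0.14, adjusted p = 0.245). The call in RbpjiΔEC mice was lost without RbpjiΔEC array 1 (adjusted p = 0.112) or 4 (0.125) labelled CCR2+, and without RbpjiΔEC array 2 (0.119), 3 (0.136) or 4 (0.0859) labelled CCR2-. It was also lost with median centring (0.0629), and with the replicate number as a block (0.0656).

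Ccl7, which binds CCR1 and CCR3 besides CCR2, was near the floor in all 4 groups. Its means were 6.81 ± 0.07 and 6.66 ± 0.10 in RbpjiΔEC and control arrays labelled CCR2+, and 6.66 ± 0.17 and 6.73 ± 0.13 in RbpjiΔEC and control arrays labelled CCR2- (SD, n = 4 each). Ccl12, a CCR2 ligand of mice, was near the floor too, with means of 6.23 ± 0.08 and 6.16 ± 0.14 in RbpjiΔEC and control arrays labelled CCR2+, and 6.24 ± 0.09 and 6.27 ± 0.03 in RbpjiΔEC and control arrays labelled CCR2-. Neither gene was called in any of the 5 comparisons. The 95% intervals of their differences between the labels spanned 0 in both genotypes.

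**Figure D3:**
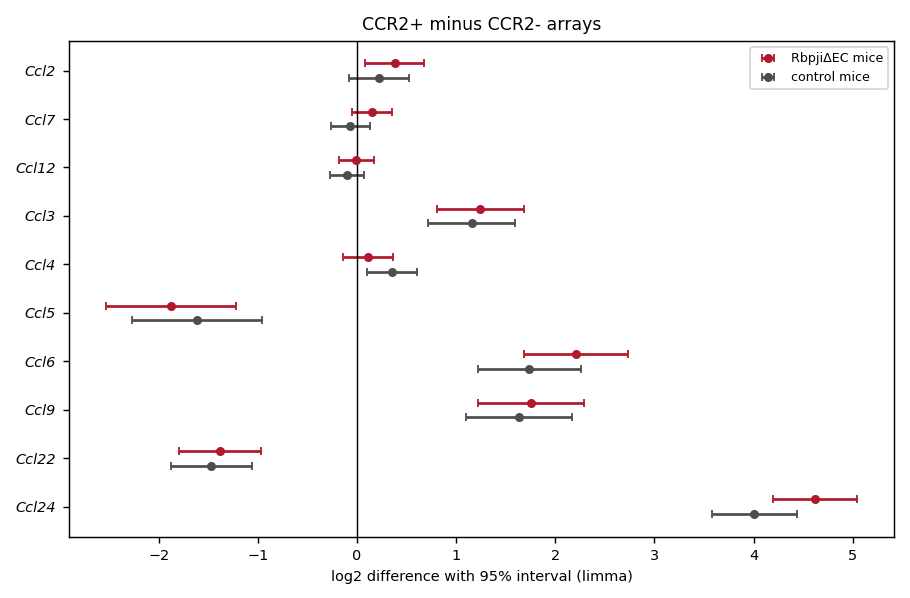
Log2 difference, CCR2+ minus CCR2- (x), for each ligand gene (y), in RbpjiΔEC mice (red) and control mice (grey); points are limma estimates and bars their 95% intervals. The difference of Ccl24 is 4.62 in RbpjiΔEC and 4.01 in control mice, Ccl5 and Ccl22 lie left of 0 in both, and the intervals of Ccl7 and Ccl12 span 0 in both.

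Between the genotypes no ligand was called. Among the arrays labelled CCR2+, 0 of the 10 ligands and 0 of all 18194 genes (0%) passed an adjusted p under 0.05 in limma. At an unadjusted p under 0.05 there were 0 ligands and 830 genes, and the smallest adjusted p of any gene was 0.0835. The fit over the 34958 probe sets with 1 symbol called 2 of them (0.00572%), neither of a ligand. Among the arrays labelled CCR2-, 0 ligands and 0 genes (0%) were called, with 0 ligands and 390 genes at an unadjusted p under 0.05 and a smallest adjusted p of 0.150. The median difference of the 10 ligands was 0.01 under the label CCR2+ and -0.09 under CCR2-, and that of all genes -0.01 and 0.00 under the same labels.

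Ccl5 came nearest to a genotype difference in the arrays labelled CCR2+. Its 4 RbpjiΔEC values given above, 6.81 to 7.55, all lay below its 4 control values, 7.68 to 7.95. The difference was -0.57 (95% interval -1.22 to 0.08, unadjusted p = 0.0829, adjusted p = 0.966). The spread in this limma fit was shared by the 4 groups. The Ccl5 SDs were 0.34 and 0.11 in RbpjiΔEC and control arrays labelled CCR2+. Under CCR2- they were 0.60 and 0.69, so the interval and p are not those of the arrays labelled CCR2+ alone. Of all genes, 3.39% had no overlap in this comparison, and 1.3% had every RbpjiΔEC array below every control array. Under the label CCR2- the Ccl5 values overlapped, with a difference of -0.31 (95% interval -0.96 to 0.35). Ccl5 was thus 1 of 10 ligands without overlap under CCR2+, and under CCR2- 0 of 10 had none, against 1.56% of all genes.

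Ccl24 differed by 0.30 under the label CCR2+ (95% interval -0.12 to 0.73) and by -0.30 under CCR2- (95% interval -0.73 to 0.12). Without control array 1 the Ccl24 difference under CCR2- was -0.03. The difference between both genotype effects on Ccl24, the interaction, was 0.61 (95% interval 0.01 to 1.21, unadjusted p = 0.0478, adjusted p = 0.999), and 0.34 without control array 1 labelled CCR2-. It was the only ligand with an unadjusted interaction p under 0.05, beside 555 of all genes. No ligand and no gene (0%) was called for the interaction.

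Ccl6 differed by -0.51 between the genotypes under the label CCR2- (95% interval -1.03 to 0.02, unadjusted p = 0.0566, adjusted p = 1.00) and by -0.04 under CCR2+ (95% interval -0.56 to 0.49). Its second probe set, 1420249_s_at, gave -0.71 under CCR2- (unadjusted p = 0.0143, adjusted p = 1.00 over all probe sets). Without control array 1 the first probe set of Ccl6 gave -0.19. The 2 probe sets of Ccl9 disagreed in sign under the label CCR2-. Probe set 1417936_at of Ccl9 gave -0.07 (95% interval -0.60 to 0.47) and 1448898_at gave 0.46 (95% interval 0.03 to 0.89, unadjusted p = 0.0372, adjusted p = 1.00), and the first gave 0.24 without control array 1.

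The other ligands showed smaller differences between RbpjiΔEC and control mice. Under the label CCR2+ they ranged from -0.08 for Ccl22 to 0.15 for Ccl7, with Ccl2 at 0.10, Ccl12 at 0.07, Ccl9 at 0.06, Ccl3 at -0.03 and Ccl4 at -0.07. Under the label CCR2- they ranged from -0.17 for Ccl22 to 0.17 for Ccl4, with Ccl3 at -0.12, Ccl7 at -0.07, Ccl2 at -0.06 and Ccl12 at -0.03. The 95% intervals all spanned 0, and the widest of the genes in this paragraph was that of Ccl9, from -0.48 to 0.59 under CCR2+. Its width reflects a spread shared by the 4 groups. The Ccl9 SDs were 0.05 and 0.06 in RbpjiΔEC and control arrays labelled CCR2+. Under CCR2- they were 0.26 and 0.75. Array controls for RNA quality also did not pass the exact permutation test between the genotypes. The largest gap was in the actin 3' minus 5' difference, 0.39 in RbpjiΔEC and 0.26 in control arrays labelled CCR2+ (exact p = 0.0857, where 0.0286 is the smallest that 4 against 4 arrays allow).

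**Figure D4:**
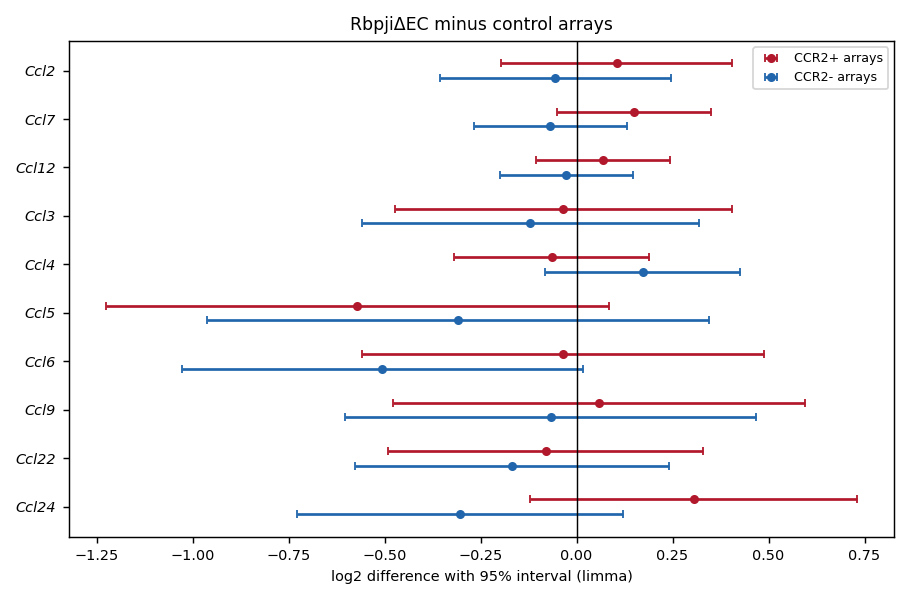
Log2 difference, RbpjiΔEC minus control (x), for each ligand gene (y), in the arrays labelled CCR2+ (red) and CCR2- (blue); points are limma estimates and bars their 95% intervals. All 20 intervals span 0, and Ccl5 under the label CCR2+ (-0.57) and Ccl6 under CCR2- (-0.51) lie farthest from it. Each gene's intervals use a spread shared by the 4 groups.

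The receptors of these ligands were read on the same arrays. Of the CC chemokine receptor genes measured, 10 in all, 4 were higher and 2 lower in RbpjiΔEC mice in the arrays labelled CCR2+. In control mice 3 were higher and 4 lower. Of all genes 18.1% were higher and 21% lower in RbpjiΔEC mice, and 19.4% higher and 21.4% lower in control mice. Ccr1, the receptor of Ccl6, Ccl9, Ccl3 and Ccl5, had means of 12.69 ± 0.12 and 12.59 ± 0.16 in RbpjiΔEC and control arrays labelled CCR2+, and 10.19 ± 0.37 and 10.51 ± 0.52 in RbpjiΔEC and control arrays labelled CCR2-. Ccr1 was higher under the label CCR2+ by 2.50 in RbpjiΔEC mice (SE 0.21, adjusted p = 6.00e-08) and by 2.08 in control mice (SE 0.21, adjusted p = 5.80e-07), with no overlap. Its ligands Ccl6, Ccl9 and Ccl3 had the same direction and Ccl5 the opposite one.

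Ccr3, the receptor of Ccl24, was near the floor in all 4 groups, with means of 6.73 and 6.80 in RbpjiΔEC and control arrays labelled CCR2+ and 6.23 and 6.30 in RbpjiΔEC and control arrays labelled CCR2-. The test called Ccr3 higher under the label CCR2+ by 0.50 in both genotypes (adjusted p = 0.00902 in RbpjiΔEC and 0.00815 in control mice). Ccr4, the receptor of Ccl22, was near the floor in 3 of the 4 groups and was not called. Ccr6 and Ccr7, homing receptors of B cells, T cells and dendritic cells, had the largest differences of the list. Ccr6 differed by -4.59 in RbpjiΔEC and -4.72 in control mice, and Ccr7 by -3.86 in RbpjiΔEC and -3.74 in control mice. Ccr6 and Ccr7 moved with the B cell markers given above, and the part of those cells was not tested.

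All 8 listed atypical receptors and ligand-cleaving enzymes were measured. Under the label CCR2+, 2 were higher and 2 lower in RbpjiΔEC mice, and 3 were higher and 3 lower in control mice. The share called over all genes was 39.1% in RbpjiΔEC and 40.8% in control mice. Ackr3, a scavenging receptor of the CXC ligand Cxcl12, was higher by 4.22 in RbpjiΔEC and 4.05 in control mice, and Ccrl2, which holds chemerin on the cell surface, by 1.30 in RbpjiΔEC and 1.44 in control mice. Dpp4, a protease that trims Ccl5 and Ccl22 among others, was lower, with differences of -4.00 in RbpjiΔEC and -4.45 in control mice. Ackr2, the scavenger of inflammatory CC ligands such as Ccl2, Ccl3 and Ccl5, differed by -3.20 in RbpjiΔEC and -3.18 in control mice. Ackr2 is known from B-1 and marginal zone B cells as well as from lymphatic endothelium, and it too stood beside the B cell markers.

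**Figure D5:**
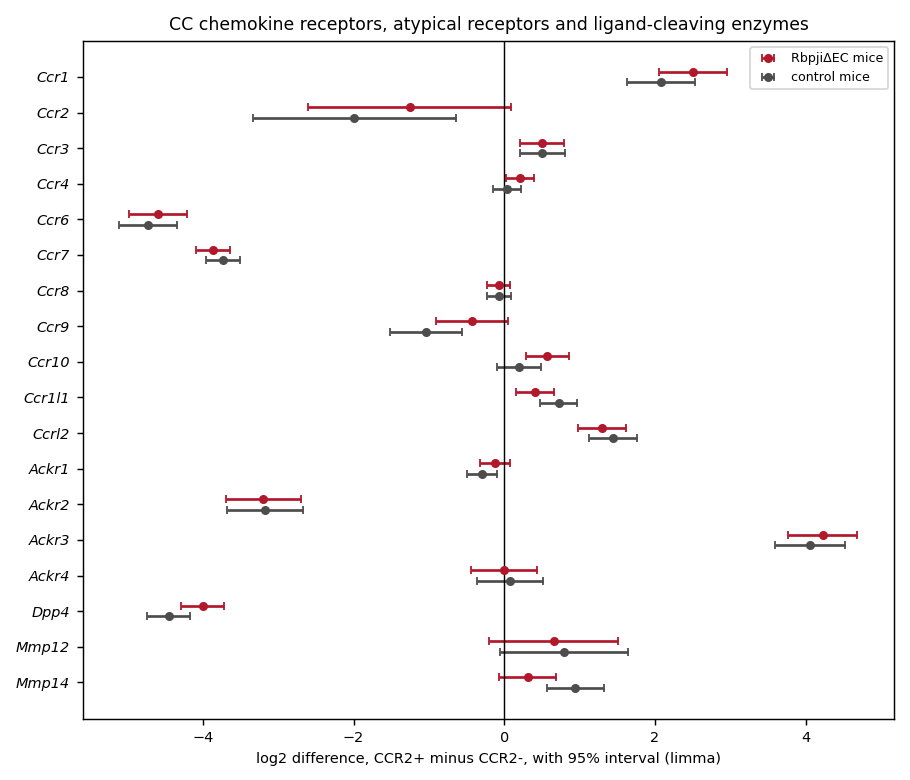
Log2 difference, CCR2+ minus CCR2- (x), for CC chemokine receptors, atypical receptors and ligand-cleaving enzymes (y), in RbpjiΔEC mice (red) and control mice (grey); points are limma estimates and bars their 95% intervals. Ccr1 (2.50 in RbpjiΔEC and 2.08 in control mice) and Ackr3 (4.22 and 4.05) lie to the right, and Ccr6, Ccr7, Ackr2 and Dpp4 to the left.

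Of 12 further CC ligand genes 8 were measured, and Ccl19, Ccl21a, Ccl21b and Ccl26 were not analysed here. Between the labels 1 was higher and 1 lower in each genotype, where 39.1% of all genes were called in RbpjiΔEC and 40.8% in control mice. Ccl25, a ligand of Ccr9, was higher under CCR2+ by 1.09 in RbpjiΔEC mice (adjusted p = 2.46e-06) and by 1.21 in control mice (adjusted p = 6.63e-07), and Ccl17 was lower as given above. Ccl8, a member of the chromosome 11 cluster, was near the floor in all 4 groups. Of 27 inducers and regulators of CC ligand transcription and mRNA decay, 25 were measured. In RbpjiΔEC mice 6 of these were higher and 7 lower under the label CCR2+, against 18.1% and 21% of all genes. In control mice 5 were higher and 7 lower, against 19.4% and 21.4% of all genes. Il1a, a cytokine that induces chemokines through NF-kB, was higher by 2.12 in RbpjiΔEC and 2.76 in control mice, and Nfkbiz, an inducible regulator of NF-kB targets, by 1.25 in RbpjiΔEC and 0.66 in control mice. Irf4, a factor of alternatively activated macrophages and of B and plasma cells, differed by -1.55 in RbpjiΔEC and -1.28 in control mice, and Il1b by -1.45 in RbpjiΔEC and -1.22 in control mice. In both genotype comparisons and in the interaction, 0 genes of these 4 lists were called, as for all genes.

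The genes whose values ran closest to each ligand over the 16 arrays were found by the root mean square difference after centring each gene on its mean, for the 6 ligands whose group means spanned at least 1 log2 unit. Ccl24 ran closest to Abcd2 (0.22), Pros1 (0.25) and Hacd4 (0.26). Ccl6 ran closest to Cd200r1 (0.26), Ifitm3 (0.27) and Gpr160 (0.28), and Ccl9 to Ifitm3 (0.18), Fam102b (0.24) and Abi2 (0.24). For the neighbours Ccl6 and Ccl9, Ifitm3 was thus named by both. Ccl3 ran closest to Scarb1 (0.22), Dbt (0.23) and Palm (0.23), Ccl5 to Ctnnd2 (0.33), Cd209c (0.34) and Nr4a3 (0.35), and Ccl22 to Chd1 (0.23), Plekho1 (0.23) and Vmn2r84 (0.24). Any gene that differs by a like amount between the labels is close by this measure, and the arrays share labels and normalization.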

How the data were processed

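RNA of peritoneal cells sorted as TAMs was measured on 16 Affymetrix arrays, labelled with biotin and extracted with a PicoPure kit per the labels' protocols. The deposited values are linear probe set intensities, and the authors' steps before deposit (software, normalization) are not given in the sources used here. The table holds no detection calls and no scan dates. Intensities were log2-transformed and quantile normalized over all arrays. Of 45101 probe sets 34958 carried 1 gene symbol, 932 carried several and 9211 had no entry in the annotation, and the last 2 kinds were left out. A gene was read from its brightest probe set by mean over the arrays (18194 genes), with no intensity filter.

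Differences were tested with limma 3.58.1 (lmFit and eBayes) in R 4.3.3, two-sided, with a mean per group, a spread shared by the 4 groups and Benjamini-Hochberg adjustment over all genes, at 0.05. A gene past that threshold is called. In all 5 comparisons were made, RbpjiΔEC minus control for either label, CCR2+ minus CCR2- for either genotype, and the interaction. The same fit over all probe sets with 1 symbol gave the values of second probe sets. Single values outside limma had exact permutation tests. The fit was also run on simulated data, drawn as independent noise around group means with planted shifts. Those data held no array effects and no difference in the kind of column, so they do not bear on these limits. Promoter windows, gene names and neighbours came from RefSeq tables of GRCm38.p6, motifs were searched with Python 3.11.15 and windows aligned with Biopython 1.88.

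The 10 members, the gene lists, the markers and the tests were chosen with earlier results of these data known. Named were all members with every probe set, Ccr1, Ccr2, Ccr3, Ccr4, Ccl8, Ccl17 and Rbpj, and from each further list the called genes with the 2 largest differences per direction. Part of the genes that this rule takes are printed. The deviations of same-numbered arrays from their group means correlated between -0.38 and 0.19 across the genotypes and between -0.03 and 0.40 across the labels. No comparison had every pair above 0.1, and the labels state no pairing, so the main fit did not pair the arrays by number. Whether same-numbered arrays share animals is not stated, and a fit with the number as a block is given below. Alternatives tried were median centring, no normalization, the mean of all probe sets, a filter on dim genes, a trended robust fit, array weights, a replicate block, fits on fewer groups, normalization within a label, and leaving out arrays.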

Additional observations from a re-analysis of the deposited data

Results flagged for a closer look

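In each group of 4 arrays, the gap between the highest or lowest array and its nearest neighbour was set against the whole range of the group, and a gap above Dixon's 95% critical value for 4 arrays marked an array as far from the others. Of 48 groups of member probe sets 5 held such an array, where chance alone marks about 1 in 20.

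The widest gap was that of Ccl7 in control array 4 labelled CCR2+, 6.81, at 0.926 of the range, although all 4 values lay under the near-floor limit. Ccl24 in control array 1 labelled CCR2- was 8.06, at 0.904 of the range, and this array was also the highest of its label for Ccl6, Ccl9 and Ccr2. Ccl4 in control array 3 labelled CCR2- was 7.39, at 0.899 of the range. Ccl22 in control array 3 labelled CCR2+ was 6.76, at 0.869 of the range, the lowest of its group. Ccl6 in RbpjiΔEC array 1 labelled CCR2- was 10.36, at 0.865 of the range, the lowest of all 16 arrays for that probe set.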

How the results depend on the processing

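Of 900 repeats of a ligand's test under an alternative setting, 883 kept their side of the threshold, 17 lost a call, 0 gained one and 0 called values changed sign, while 37 differences that were not called changed sign. The 17 losses were those of Ccl4 between the labels in control mice (adjusted p between 0.0522 and 0.199) and of Ccl2 in RbpjiΔEC mice (between 0.0629 and 0.136), including fits on only the 2 groups compared. The causes were not tested. The calls of Ccl3, Ccl5, Ccl6, Ccl9, Ccl22 and Ccl24 between the labels held under every alternative that tested them. The filter on dim genes left 6 ligands (Ccl2, Ccl5, Ccl6, Ccl9, Ccl22, Ccl24). Ccl24 averaged only 6.94 and 7.25 in RbpjiΔEC and control arrays labelled CCR2-, and Ccl22 6.94 and 7.02 in those labelled CCR2+. Ccl4, with group means of 7.01 to 7.36, was left out. Ccl24 and Ccl22 thus passed by their level under the other label. Passing is tied to the difference tested, so the share called among these ligands is no separate check and is not given. Leaving out 1 array at a time gave 6 to 7 called ligands in each genotype. Of all genes, the same fits called 6507 to 6864 in RbpjiΔEC and 6836 to 7374 in control mice between the labels. Under the other alternatives these counts were 6348 to 8277 in RbpjiΔEC and 5982 to 7647 in control mice. The counts of called ligands between the labels, with the replicate block too, are to be read beside these large counts. Between the genotypes 0 ligands were called under any alternative. Over all genes, the genotype comparison under CCR2+ called 2 with the mean of all probe sets, 1 with the filter on dim genes, 1 with array weights, and 0 to 2 without 1 array. Under CCR2- it called 0 to 1 without 1 array and 1 without control arrays 1 and 3 of that label together, which also gave 1 for the interaction. With no normalization the median of all genes moved to 0.23 between the labels in RbpjiΔEC mice, to -0.16 between the genotypes under CCR2- and to 0.16 for the interaction, and a ligand's difference is to be read relative to it.

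The replicate number as a block gave 6 called ligands in RbpjiΔEC and 7 in control mice between the labels, 0 between the genotypes, and 1 gene of all between the genotypes under CCR2+. It changed no other ligand's call than that of Ccl2. Among the 4 arrays of the other group, the best correlated had the same number in 6 of 8 cases across the labels. Across the genotypes this held in 2 of 8. These counts are a hint from the data and not the design.

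With 4 arrays a group, no detection calls and no dates, differences of ligands near the floor, batches, and the kind of deposited column could not be separated from the label.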
